A study of Mus musculus with 2 samples.

Results

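CD4 T cells were picked out of single-cell RNA sequencing of the mouse abdominal aorta, in which tissue of the Control group was set against tissue of the AngII+HS group after 28 days. A cell counted as a CD4 T cell when it held at least 2 UMIs (unique molecular identifiers, each standing for 1 captured transcript) of Cd3d, Cd3e and Cd3g together, the CD3 chains of the T cell receptor, and at least 1 UMI of Cd4, with none of Cd8a, Cd8b1, Trdc or Cd79a and few UMIs of the macrophage C1q genes, S100a8, S100a9 and Dcn. Of 35848 cells that passed the quality limits, 152 met this rule: 15 of 11288 in Control and 137 of 24560 in AngII+HS. The genes of the rule were measured in the same cells, so their own levels are not results, and every other gene is described in cells chosen in this way.

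Both groups were 5-month-old male C57BL/6J mice. The AngII+HS mice received angiotensin II from osmotic minipumps placed under the skin together with high-salt drinking water for 28 days, a treatment that gives abdominal aortic aneurysm, and the Control mice received normal saline. Suprarenal aortas were digested with enzymes without sorting, and each group was 1 library. The series' design text speaks of tissue pooled from 5 mice per sample, whereas its extraction protocol speaks of 1 control mouse and 2 treated mice, and no cell can be assigned to a mouse. With 1 library per group no test between groups was possible. Cells are not replicates, and the 95% intervals given here cover counting error only. Fewer T cells in the wall and more of the other cells in the suspension cannot be told apart, nor can the treatment, the mouse and the library.

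CD4 T cells recognise peptides on MHC class II and direct other immune cells, as helper cells through cytokines and CD40 ligand, or as regulatory T cells that carry the transcription factor Foxp3 and restrain inflammation. Naive and central memory cells keep the lymph node homing receptor Ccr7 and the transcription factor Lef1. Cells that have met antigen turn on costimulatory receptors of the TNF receptor family and cytokines of the Th1, Th2 or Th17 programs. In aneurysm tissue they are found mainly in the adventitia.

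The 15 Control cells held 92778 UMIs, with 2297 to 14667 per cell and a median of 4832. The 137 AngII+HS cells held 517974 UMIs, with 667 to 20323 per cell and a median of 2871. Levels are given as CPM, counts per 1e6, in which the UMIs of a gene are divided by all UMIs of the cells of a set. Here 1 UMI was worth 10.8 CPM in Control and 1.93 CPM in AngII+HS, and a gene with no UMI could have a level up to 32.3 CPM in Control and 5.79 CPM in AngII+HS (3 UMIs). The barcode lists were interchanged, since the list recorded under each sample has the length of the other sample's matrix. The matrices were used as recorded, in which smooth muscle cells made up 53.9% of Control and 4.49% of AngII+HS, and the lists served only to count shared barcodes. They shared 67 barcodes, of which 1 belonged to a Control CD4 T cell and 0 to an AngII+HS CD4 T cell.

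The T cell label was checked on 13 T cell genes that the rule did not use. A Control CD4 T cell held UMIs of 6 to 12 of them (median 8), and an AngII+HS cell of 1 to 13 (median 8). Trac, the constant chain of the alpha T cell receptor, was found in 73.3% of Control and 66.4% of AngII+HS CD4 T cells, against 3.64% and 1.84% of B cells in the same libraries, whose median depth was 3225 and 2802 UMIs. These B cells are the reference for such shares below, although 506 of the 925 AngII+HS B cells held more than 1% of their UMIs in markers of 7 other cell types. Those markers include the MHC class II gene H2-Aa of the dendritic cell list, found in 864 of the 925. The 506 therefore cannot be read as cells with foreign transcripts alone. Cd40lg, the ligand with which helper cells act on B cells, was found in 2 of 15 and 40 of 137 cells, against 0 of 925 AngII+HS B cells, a count that puts the share of B cells with a UMI at no more than 0.324% (3 counts of 925). Zbtb7b, the transcription factor of the CD4 lineage, gave no such mark, with 0 UMIs in Control and 7 UMIs in 7 AngII+HS cells, a share of 5.11% against 3.68% of B cells. Among the genes highest over all other cells of a library were Izumo1r, Tnfrsf4, Sh2d1a and Slamf6 in Control and Tnfrsf4, Themis, Cd5 and Cd40lg in AngII+HS.

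The rule rests on few UMIs. Cd4 stood at 1 UMI in 7 of 15 Control and 85 of 137 AngII+HS cells, and the CD3 sum stood at its limit of 2 in 4 and 26 cells. Just outside the rule, 32 Control and 377 AngII+HS cells met every other condition and had no Cd4 UMI. A further 1 and 31 cells failed only on the CD3 sum, with 1 UMI. A Cd4 UMI can be missed at this depth, and how many of the cells with none are CD4 T cells was not tested; they are used below as a further set in which Foxp3 was read.

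Some cells of the set carried transcripts of other cell types. In 2 of 15 Control and 9 of 137 AngII+HS cells, marker genes of 7 other cell types made up more than 1% of the UMIs, and these are called mixed cells. The medians over the sets were 0.127% and 0.284%. Both mixed Control cells carried smooth muscle transcripts, with 323 and 258 UMIs of the smooth muscle list, and were the deepest of the 15, at 13178 and 14667 UMIs. The smooth muscle list summed to 6844 CPM in Control and 1313 CPM in AngII+HS with all 7 genes found and Acta2 as the most abundant, and to 831.6 and 880.9 CPM without the mixed cells. The macrophage list stood the other way, at 43.1 CPM from 2 of 10 genes in Control and 1037 CPM from 10 of 10 genes in AngII+HS (668 CPM without the mixed cells), with Apoe the most abundant. The neutrophil list had 0 UMIs in Control and summed to 693 CPM in AngII+HS, where Il1b led, or 253.6 CPM without the mixed cells. B cell transcripts summed to 97.0 CPM in Control, where Ighm gave 7 of 9 UMIs, and to 973 CPM in AngII+HS, where Cd74 gave 305 of 504 and Cd79b and Ighd were at 0. The dendritic cell, endothelial and erythroid lists were also higher in AngII+HS, at 10.8 and 622, 194 and 944, and 21.6 and 1041 CPM. Without the mixed cells they stood at 15.4 and 231, 123 and 367, and 30.8 and 31.7 CPM. The fibroblast list stood at 1013 and 822 CPM, but at 154 and 700 CPM without the mixed cells. The neural list was lower in AngII+HS, at 205 and 133 CPM. List counts of the comparison of the libraries and of the Foxp3 comparison are given below with and without the mixed cells, and single genes without them where that is stated.

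CD4 T cells made up 0.133% of all cells in Control (0.0744 to 0.219 as 95% interval) and 0.558% in AngII+HS (0.469 to 0.659). The share was 4.20-fold higher in AngII+HS, a log2 ratio of 2.07 (1.30 to 2.95), and without the mixed cells the log2 ratio was 2.18 (1.35 to 3.13). Other lymphocyte sets were a larger part of the AngII+HS library too. The log2 ratio was 1.05 for CD8 T cells (39 and 176 cells), 1.62 for gamma-delta T cells (12 and 80 cells), 2.44 for T cells with no Cd4, Cd8 or Trdc UMI (32 and 377 cells) and 2.95 for B cells (55 and 925 cells). The few T cells with both Cd4 and Cd8 UMIs (6 and 5 cells) stood the other way, at -1.38 (-3.43 to 0.59). Within the T cells, CD4 T cells made up 14.4% of 104 in Control (8.30 to 22.7) and 17.6% of 778 in AngII+HS (15.0 to 20.5), and these intervals overlap widely. These shares depend on how many smooth muscle cells were set free in each digestion, and the part of that in the difference was not tested.

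**Figure D1:**
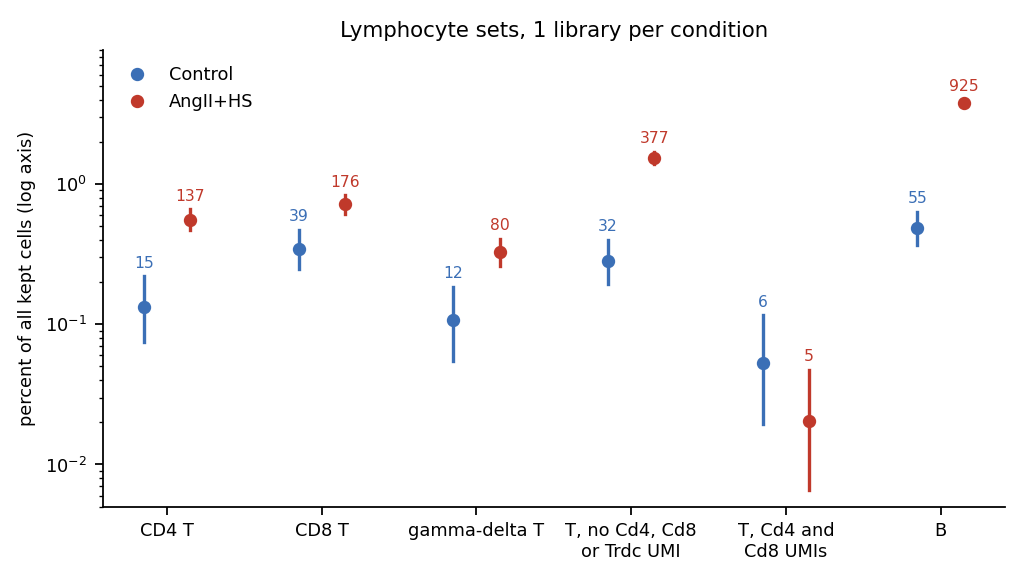
Share of all kept cells, in percent on a log axis, of 6 lymphocyte sets in the Control and AngII+HS libraries, with exact 95% binomial intervals and the cell numbers above the points. CD4 T cells stood at 0.133% in Control and 0.558% in AngII+HS, and CD8 T cells, gamma-delta T cells, B cells and T cells with no Cd4, Cd8 or Trdc UMI were also a larger share of the AngII+HS library.

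Across genes, 2493 had at least 50 UMIs in the CD4 T cells of both libraries together. Of these, 403 were at least 2-fold higher in AngII+HS, which is 16.2%, and 141 were at least 2-fold lower, which is 5.66%, around a median log2 ratio of 0.13. Without the mixed cells 2070 genes remained, of which 16.7% were at least 2-fold higher and 3.96% at least 2-fold lower, around a median of 0.12. As the AngII+HS cells held most of the UMIs, a gene could pass the 50-UMI limit through them alone, and a gene with no Control UMI then had to be past the limit. With all cells, 38 of the 2493 genes had 0 UMIs in 1 library. In the lists below these included 4 cytokines and other secreted signals and 2 regulatory T cell genes. The activation, inhibitory receptor, Th1, Tfh, cytokine receptor and interferon-stimulated lists each held 1. The counts of list members below are therefore descriptions, to be read beside these shares, and the lists hold genes with known roles chosen by hand.

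Tnfrsf9 and several other receptors that T cells put on the surface after stimulation were higher in AngII+HS. Of 18 genes in the list for activation and effector memory, all passed the 50-UMI limit, 7 were at least 2-fold higher and 1 at least 2-fold lower, with a median log2 ratio of 0.90, and without the mixed cells 10 were higher and 0 lower, with a median of 1.20. Tnfrsf9 (4-1BB), a costimulatory receptor of recently stimulated cells, had 0 UMIs in the 15 Control cells and 237 UMIs in 47 of 137 AngII+HS cells, 457.6 CPM, a log2 ratio of at least 3.82 when 3 UMIs are set in for Control (at least 3.50 without the mixed cells). The share of 34.3% of AngII+HS CD4 T cells with a Tnfrsf9 UMI compares with 1.51% of B cells. The absence from Control rests on 15 cells, and 0 of 15 allows a share of up to 20% (3 counts of 15, the limit used for every share of 0).

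Several other receptors of the TNF receptor and CD28 families were higher too. Ctla4, the inhibitory counterpart of CD28, had 12 UMIs in 6 Control cells (129.3 CPM) and 282 UMIs in 64 AngII+HS cells (544.4 CPM), a log2 ratio of 2.07 (1.25 to 3.04), or 1.69 without the mixed cells. Tnfrsf4 (OX40), which sustains stimulated helper cells, had 11 UMIs in 6 Control cells and 184 UMIs in 53 AngII+HS cells, a log2 ratio of 1.58 (0.71 to 2.61). Tnfrsf18 (GITR), a costimulatory receptor high on regulatory T cells, had 1 UMI in Control and 106 UMIs in 47 AngII+HS cells, a log2 ratio of 4.25 (1.74 to 9.56). Ctla4 and Tnfrsf4 were thus present in both libraries, in 40.0% of Control cells each, and Tnfrsf18 was found in 1 of the 15. Ctla4 was also found in 17.2% of AngII+HS B cells, against 46.7% of the CD4 T cells. Pdcd1 (PD-1), an inhibitory receptor, had 0 UMIs in Control and 69 UMIs in 31 AngII+HS cells, a log2 ratio of at least 2.04. Icos, a costimulatory receptor of the CD28 family, differed less, at 452.7 CPM in Control and 660.3 CPM in AngII+HS, a log2 ratio of 0.54 (0.08 to 1.04), or 0.18 without the mixed cells. Cd28 itself stood close in both, at 463.5 and 476.9 CPM, a log2 ratio of 0.04 (-0.43 to 0.54). Of the 9 genes of the inhibitory receptor list, only Ctla4 and Pdcd1 passed the limit, both at least 2-fold higher with and without the mixed cells. Pdcd1, at 0 in Control, could not come out otherwise. Lag3, Tigit and Havcr2 had 1, 2 and 1 Control UMIs and 8, 21 and 30 AngII+HS UMIs.

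Il2ra and Il2rb, chains of the interleukin 2 receptor, were higher in AngII+HS, as were Rora, Batf and Id2. Il2ra (CD25), the high-affinity chain of the interleukin 2 receptor, had 0 Control UMIs and 115 UMIs in 27 AngII+HS cells, a log2 ratio of at least 2.78, with 47 of the UMIs in 1 cell. Il2rb, the beta chain, had 9 UMIs in 6 Control cells and 203 UMIs in 91 AngII+HS cells, a log2 ratio of 2.01 (1.06 to 3.16). Rora, a nuclear receptor of memory and regulatory T cells in tissues, stood at 420.4 CPM in Control and 1249 CPM in AngII+HS, where 107 of 137 cells held it, a log2 ratio of 1.57 (1.10 to 2.08). Cd44, the adhesion receptor that marks memory cells, had a log2 ratio of 1.09 (0.46 to 1.79) that came to 0.79 without the mixed cells. Batf, a factor of effector differentiation, had 2 Control UMIs and 80 AngII+HS UMIs, a log2 ratio of 2.84 (0.94 to 5.91). Id2, a partner factor of effector cells, had a log2 ratio of 1.70 (0.83 to 2.72). Btg1, which restrains cell division and is abundant in lymphocytes, gave a narrow interval, 808.4 CPM in Control against 1846 CPM in AngII+HS, a log2 ratio of 1.19 (0.85 to 1.55).

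**Figure D2:**
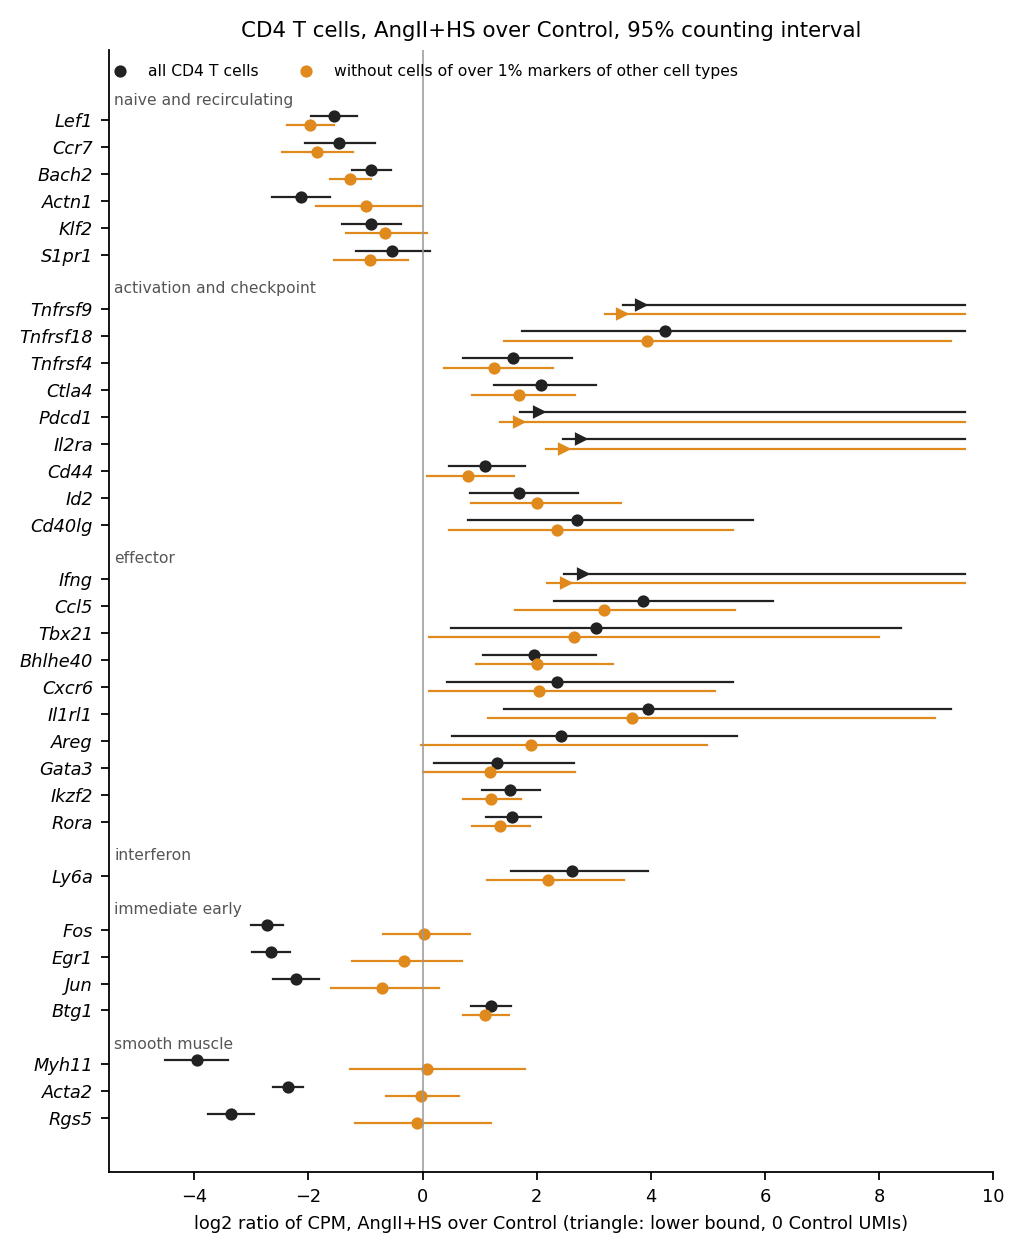
Log2 ratio of CPM in CD4 T cells, AngII+HS over Control, with 95% counting intervals, for 33 genes in 6 groups: black, all CD4 T cells; orange, without mixed cells; triangles, lower bounds for genes with 0 Control UMIs. Tnfrsf9 has the highest of the bounds named in the text among receptor genes (at least 3.82), Lef1 lies below 0 in both sets (-1.55 and -1.97), and Fos and Myh11 move from -2.72 and -3.95 to near 0 without the mixed cells.

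Lef1, Ccr7 and some other genes of naive and central memory cells were lower in AngII+HS. Of 12 genes in that list, 8 passed the limit, 0 were at least 2-fold higher and 3 at least 2-fold lower, with a median log2 ratio of -0.72 (-0.79 without the mixed cells, 2 lower). Lef1, a transcription factor of naive T cells, had 81 UMIs in 10 of 15 Control cells (873.1 CPM) and 154 UMIs in 59 of 137 AngII+HS cells (297.3 CPM), a log2 ratio of -1.55 (-1.95 to -1.15), or -1.97 without the mixed cells. Ccr7, the lymph node homing receptor, had 35 UMIs in 8 Control cells and 71 UMIs in 21 AngII+HS cells, a log2 ratio of -1.46 (-2.06 to -0.83), or -1.85 without the mixed cells. Bach2, a repressor that holds T cells in a resting state, had a log2 ratio of -0.90 (-1.24 to -0.55), or -1.27 without the mixed cells. Not all of the program differed: Tcf7, the partner of Lef1, stood at 280.2 and 243.3 CPM, a log2 ratio of -0.20 (-0.82 to 0.46), and Satb1, a chromatin organiser of T cells, at 1186 and 1068 CPM, a log2 ratio of -0.15 (-0.45 to 0.16). Actn1, counted in the list, had a log2 ratio of -2.13 that came to -0.99 without the mixed cells, which held 17 and 31 of its 62 Control UMIs.

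The difference in Lef1 rested on few Control cells, and on those with the least Cd4. Counted cell by cell, the 15 Control cells had between 0 and 19 Lef1 UMIs with a median of 3, and 4 of them had 11 to 19. The 137 AngII+HS cells had between 0 and 13 with a median of 0, so the sets overlap. Among the 7 Control cells with 1 Cd4 UMI, 6 held Lef1, with 70 UMIs (1774 CPM), whereas the 8 with at least 2 Cd4 UMIs held 11 Lef1 UMIs in 4 cells (206 CPM). In AngII+HS, Lef1 stood at 297 CPM in cells with 1 and with more Cd4 UMIs. When at least 2 Cd4 UMIs were asked for, the log2 ratio of Lef1 was 0.53, that of Bach2 0.027 and the median of the naive and central memory list 0.42, each above 0. Ccr7 did not turn: with at least 2 Cd4 UMIs it stood at 300.1 CPM in Control (16 UMIs) and 44.4 CPM in AngII+HS (10 UMIs). Actn1 stood at 431 and 204 CPM there, but 17 of its 23 Control UMIs were in 1 mixed cell.

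**Figure D3:**
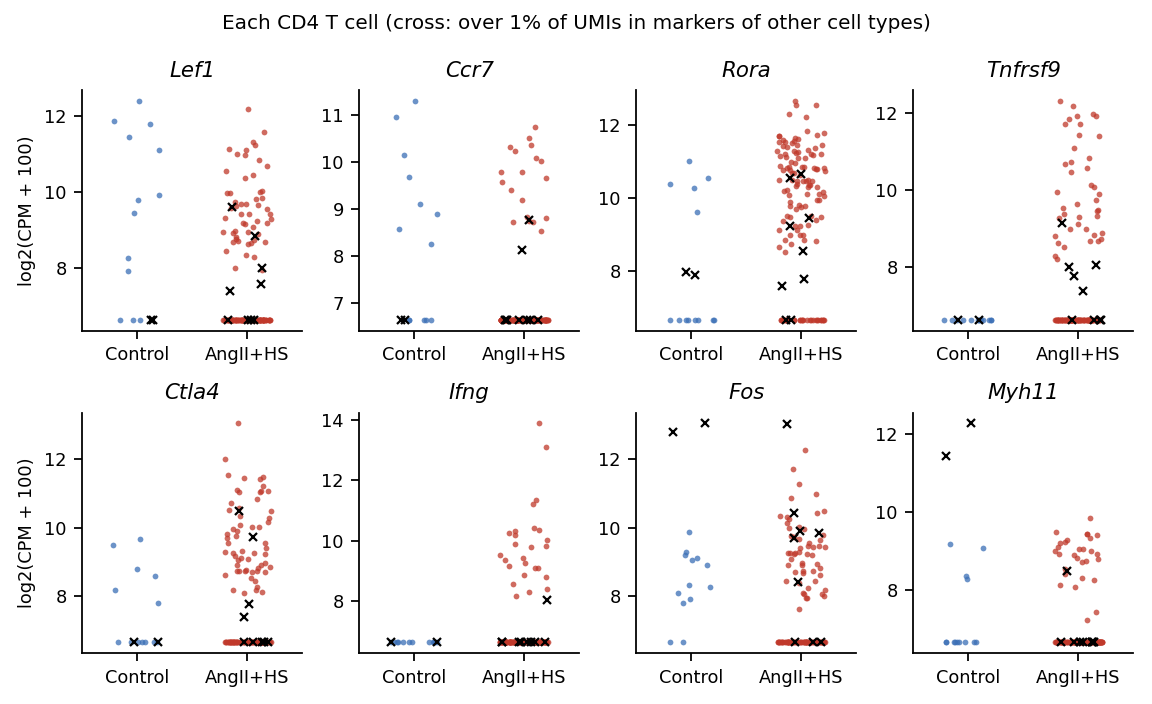
Each point is a CD4 T cell of Control (15) or AngII+HS (137), drawn as log2(CPM + 100) of Lef1, Ccr7, Rora, Tnfrsf9, Ctla4, Ifng, Fos and Myh11, with mixed cells as crosses. Tnfrsf9 and Ifng are at 0 in all 15 Control cells, Lef1 is found in 10 of 15 and 59 of 137 cells, and the highest Control cells for Fos and Myh11 are the 2 mixed cells.

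Th1 genes were higher in AngII+HS. Of 15 genes in that list, 12 passed the limit, 9 were at least 2-fold higher and 0 lower, with a median log2 ratio of 1.93, or 8 higher and a median of 1.62 without the mixed cells. Ifng, the defining Th1 cytokine, had 0 UMIs in Control and 117 UMIs in 27 AngII+HS cells (225.9 CPM), a log2 ratio of at least 2.80, with 48 of the UMIs in 1 cell. Only 0.216% of AngII+HS B cells held an Ifng UMI, against 19.7% of the CD4 T cells. Ccl5, a chemokine of effector T cells, had 3 UMIs in 1 Control cell and 243 UMIs in 46 AngII+HS cells, a log2 ratio of 3.86 (2.29 to 6.15), or 3.18 without the mixed cells. Tbx21 (T-bet), the Th1 master factor, stayed under the 50-UMI limit with 1 UMI in Control and 46 UMIs in 31 AngII+HS cells. Bhlhe40, which supports cytokine output of Th1 cells, had 10 and 217 UMIs, a log2 ratio of 1.96 (1.05 to 3.04). Cxcr6, a chemokine receptor of tissue T cells, had 2 and 57 UMIs, a log2 ratio of 2.35 (0.43 to 5.43), and Il12rb2, the Th1 chain of the interleukin 12 receptor, 7 and 102 UMIs, a log2 ratio of 1.38 (0.29 to 2.73) that came to 0.95 (-0.15 to 2.30) without the mixed cells.

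Of 34 cytokines and other secreted signals, 12 passed the limit, 11 were at least 2-fold higher and 0 lower, with a median of 2.44 when genes at 0 in Control were set at their bound, and without the mixed cells 8 of 10 were higher with a median of 1.84. Of the 12, 4 had 0 Control UMIs and so had to be higher. The counts hold every member that passed, also any that B cells held as often, and none was made without these. Cd40lg had 2 UMIs in 2 Control cells and 73 UMIs in 40 AngII+HS cells, a log2 ratio of 2.71 (0.80 to 5.78). Tnfsf8 (CD30 ligand) had 9 UMIs in 1 Control cell and 212 UMIs in 40 AngII+HS cells, a log2 ratio of 2.08 (1.12 to 3.23). Tnfsf11 (RANKL), a ligand for macrophages and osteoclast precursors, had 0 and 64 UMIs, a log2 ratio of at least 1.93. These ligands were rare in B cells of the same library, at 0.541% for Tnfsf8 and 0.865% for Tnfsf11. Several other members did not set the CD4 T cells apart, since B cells held them as often or more often. Where these UMIs came from was not tested. Ccl4 was found in 32.8% of AngII+HS CD4 T cells and 48.5% of B cells, Spp1 in 22.6% and 24.2%, and Ccl3 in 11.7% and 23.9%. Tnf had 66 AngII+HS UMIs, of which 24 remained without the mixed cells.

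The Th2 and tissue repair genes Il1rl1, Areg and Gata3 were higher in AngII+HS and were the 3 of 12 in the Th2 list that passed the limit. All 3 were at least 2-fold higher with and without the mixed cells. Il1rl1 (ST2), the interleukin 33 receptor, had 1 UMI in Control and 86 UMIs in 18 AngII+HS cells, a log2 ratio of 3.95 (1.43 to 9.27). Areg (amphiregulin), a growth factor of tissue regulatory T cells, had 2 and 60 UMIs, a log2 ratio of 2.43 (0.51 to 5.50), or 1.91 (-0.02 to 4.99) without the mixed cells, and Gata3, the Th2 master factor that regulatory T cells also use, 7 and 96 UMIs, a log2 ratio of 1.30 (0.20 to 2.65). The Th2 cytokines themselves were scarce, with 3 UMIs of Il4 and none of Il5 or Il13 in AngII+HS. The Th17 genes were also scarce, with 7 Il17a UMIs in 2 cells and 13 of Il23r in AngII+HS and 0 of each in Control. Only 2 of the 15 Th17 genes passed the limit, 1 of them at least 2-fold higher, or both without the mixed cells. Of 14 Tfh genes 4 passed, 1 higher and 1 lower, with a median of 0.032, or 3 passed, 1 higher and 0 lower, with a median of 0.18 without the mixed cells. Bcl6, the Tfh master factor, was lower, with 24 UMIs in 7 Control cells and 42 UMIs in 30 AngII+HS cells, a log2 ratio of -1.67 (-2.43 to -0.89), or -1.14 without the mixed cells.

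Interferon-stimulated genes were mostly higher, 6 of the 9 of 26 that passed being at least 2-fold higher and 0 lower, with a median of 1.63, or 5 of 8 and 1.16 without the mixed cells. Ly6a (Sca-1), an interferon-induced surface protein, stood at 75.4 CPM in Control and 463.3 CPM in AngII+HS, a log2 ratio of 2.62 (1.55 to 3.95). It stood the same way in other lymphocytes of the libraries, at 1.58 in CD8 T cells and 1.97 in B cells. Of 18 proliferation genes 5 passed, 4 at least 2-fold higher and 0 lower, with a median of 1.47, or 3 higher and a median of 1.31 without the mixed cells. Top2a, of dividing cells, had 1 UMI in Control and 65 UMIs in 20 AngII+HS cells, and Mki67 had 0 and 33 UMIs in 13 cells, whose 0 of 15 in Control allows up to 20%.

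Genes of the T cell receptor complex and its signalling shifted with the mixed cells. Of 18 such genes, Cd3d, Cd3e and Cd3g of the rule left out, all passed, 6 were at least 2-fold higher and 0 lower, with a median of 0.54, but without the mixed cells 17 passed, 1 was higher and the median was 0.36. Under stricter limits on other cells' transcripts only 2 genes passed, with a median of -0.84. With a limit of 200 UMIs 8 passed, with a median of -0.027. Cd2, an adhesion and costimulatory receptor, had 8 and 154 UMIs, a log2 ratio of 1.79 (0.77 to 3.02) and of 2.04 without the mixed cells. Trac had a log2 ratio of 0.68 (0.08 to 1.33), or 0.36 without the mixed cells. Ribosomal protein genes, of which 19 of 19 passed, had a median of -0.36 with 0 at least 2-fold higher or lower, and of -0.66 with 1 lower without the mixed cells.

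The lowest ratios belonged to smooth muscle and immediate early genes, and both rested on 2 cells. Myh11, smooth muscle myosin, had 108 UMIs in Control, of which 64 and 39 were in the 2 mixed cells, and 39 UMIs in AngII+HS, a log2 ratio of -3.95 that came to 0.08 without the mixed cells. The 5 smooth muscle genes that passed were all at least 2-fold lower, with a median of -2.36. Without the mixed cells only 2 genes of that list passed, with a median of 0.12. Fos, an AP-1 subunit that is induced within minutes, had 231 Control UMIs, of which 110 and 103 were in the same 2 cells, and a log2 ratio of -2.72 (-3.0 to -2.44) that came to 0.030 without them. Egr1, another immediate early factor, had 162 Control UMIs with 86 and 64 in those cells, and its log2 ratio went from -2.66 to -0.33. Of 35 immediate early and heat shock genes, 33 passed, 3 were at least 2-fold higher and 7 at least 2-fold lower, and without the mixed cells 6 were higher and 1 lower, while the median went from -0.18 to 0.23. Dnajb1, a heat shock cochaperone, stood at 377.2 and 100.4 CPM, a log2 ratio of -1.91 (-2.56 to -1.25) and of -2.0 without the mixed cells, with 15 of 35 Control UMIs in 1 cell.

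The genes chosen by size of ratio without the mixed cells were Tnfrsf9, Pf4, Hmox1, Tmtc2, Ifng, Il2ra, Cdkn1a, Cox17, Ccl5, Wfdc17, Tnfrsf18 and Pdcd1 among the higher, and Lef1, Adk, Ssbp2, Aff3, Ano6, Ccr7, Dnajb1, Txk, Dusp10, Scml4, Bach2 and Dapp1 among the lower. With all cells the higher set also held Thbs1, Hbb-bs and Cxcl10, and the lower set held smooth muscle genes such as Myh11, Dmd and Rgs5, with Fos and Egr1. Pf4 and Thbs1, genes of platelets and macrophages, were found in 12.4% and 28.5% of AngII+HS CD4 T cells and in 17.4% and 31.7% of B cells. Shares no higher than in the B cells do not set the CD4 T cells apart, and the source of these UMIs was not tested. Hbb-bs, a globin gene, had 293 UMIs in 9 AngII+HS cells, and Cxcl10, an interferon-induced chemokine, had 138 UMIs, of which 37 remained without the mixed cells. Hmox1, the heme-degrading enzyme, was higher in CD4 T cells, at a log2 ratio of 3.41 (2.03 to 5.30), and also in CD8 T cells at 4.21 and B cells at 4.03. Cdkn1a (p21), a cell cycle inhibitor, had 6 UMIs in 2 Control cells and 209 UMIs in 55 AngII+HS cells, a log2 ratio of 2.64 (1.5 to 4.10), beside 0.55 in CD8 T cells and 0.92 in B cells with their mixed cells kept. Once the mixed cells were left out it had 0 and 94 UMIs, a log2 ratio of at least 2.20.

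Of 30 regulatory T cell genes 15 passed, 10 were at least 2-fold higher and 0 lower, with a median of 2.01, or 10 of 14 and 1.65 without the mixed cells. This list shares Ctla4, Tnfrsf4, Tnfrsf9, Tnfrsf18, Il2ra, Il2rb, Il1rl1, Areg and Batf with the genes described above, and Ikzf2 was the last of the 10, at 377.2 CPM in Control and 1089 CPM in AngII+HS, a log2 ratio of 1.53 (1.04 to 2.07). Its Control level rested on 4 cells, and most of the UMIs, 22, were in 1 of them. In the Foxp3-negative cells alone its log2 ratio was 0.77, and those of Tnfrsf9 and Il2ra were at least 3.32 and 2.24. Of 14 cytotoxic genes only Ccl5 and Nkg7, a granule protein, passed, and both were higher with and without the mixed cells. Lists of receptors, tissue residency and CD4 lineage genes had medians nearer 0. Of 25 chemokine receptor and adhesion genes 12 passed, 3 at least 2-fold higher and 1 lower, with a median of 0.57, or 2 higher, 1 lower and 0.33 without the mixed cells. Of 26 cytokine receptor genes 15 passed, 4 higher and 0 lower, with a median of 0.44 that came to 0.088 with 3 higher without the mixed cells. Of 12 tissue residency genes 6 passed, 2 higher and 0 lower, with a median of 0.43, or 1 higher and 0.59 without the mixed cells. Of 7 genes of the CD4 lineage and helper list other than Cd4 itself, 6 passed, 2 higher and 0 lower, with a median of 0.26, or 0.25 without the mixed cells. Cxcr4, a receptor that holds cells in tissue, had 5 UMIs in 2 Control cells and 96 UMIs in 49 AngII+HS cells, a log2 ratio of 1.78 (0.51 to 3.44), or 1.27 (-0.01 to 2.93) without the mixed cells, and Cd69, a residency and activation marker, had 9 and 75 UMIs, a log2 ratio of 0.58 (-0.42 to 1.76).

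Receptors and targets of angiotensin, corticosteroids and salt were mostly sparse. Of 19 such genes 8 passed, 0 were at least 2-fold higher and 1 at least 2-fold lower, with a median of -0.44, or 1 higher and 1 lower of 4 and a median of 0.13 without the mixed cells. Agtr1a, the angiotensin receptor, had 0 UMIs in Control and 2 in AngII+HS. Nfat5, the factor of the response to high salt, stood at 312.6 and 291.5 CPM, a log2 ratio of -0.10 (-0.68 to 0.53), and Nr3c1, the glucocorticoid receptor, at 506.6 and 596.6 CPM, a log2 ratio of 0.24 (-0.21 to 0.71).

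The same ratio in CD8 T cells (39 and 176 cells) served to place these values. For Lef1 it was -1.33 (-1.60 to -1.06) beside -1.55 in CD4 T cells, and for Rora 1.43 (0.97 to 1.91) beside 1.57. For Ctla4 it was 0.24 (-0.39 to 0.90) beside 2.07 (1.25 to 3.04), and for Ccl5, which CD8 T cells already held at 3418 CPM in Control, 0.48 (0.38 to 0.59) beside 3.86 (2.29 to 6.15). In CD8 T cells, mixed cells kept, 204 of 3337 genes were at least 2-fold higher and 99 at least 2-fold lower. Of cytokines and other secreted signals 8 of 11 were higher, and of interferon-stimulated genes 7 of 10, with medians of 2.83 and 1.26. Of Th1 genes 5 of 14 and of activation genes 4 of 15 were higher, with medians of 0.58 and 0.71. Of regulatory T cell genes 2 of 7 were higher and 1 lower, and of 5 proliferation genes 0 were either. The difference between CD4 and CD8 T cells was not tested.

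Foxp3 was found in 12 of 137 AngII+HS CD4 T cells, 8.76% (4.61 to 14.8), with 28 UMIs, and in 0 of 15 Control cells, which allows up to 20%. The Control set was therefore too small to show a difference in this share. After each cell was thinned to 1000 UMIs the AngII+HS share was 5 of 132, 3.79% (1.24 to 8.62). Among the other lymphocyte sets it was found in those with no Cd4, Cd8 or Trdc UMI alone: 22 of 377 such T cells held it (5.84%, 3.69 to 8.70), and 0 of 176 CD8 T cells, 0 of 80 gamma-delta T cells and 0 of 925 B cells, which allow up to 1.70%, 3.75% and 0.324%. In the whole AngII+HS library 60 of 24560 cells held a Foxp3 UMI. The 12 CD4 T cells had 1 to 4 Foxp3 UMIs each. Their median depth was 3819 UMIs against 2800 in the 125 others, and none was a mixed cell. Only 2 of the 12 had at least 2 Cd4 UMIs, among 52 such cells (3.85%).

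The 12 Foxp3-positive cells stood higher for 9 regulatory T cell genes, among them Ikzf2, Il2ra and Tnfrsf9. Genes were compared with the 125 Foxp3-negative cells of the AngII+HS library, over 2140 genes of which 7.24% were at least 2-fold higher and 15.5% at least 2-fold lower, with a median log2 ratio of -0.01. Without the mixed cells, which were all Foxp3-negative, these shares were 6.86% and 13.4% of 1823 genes. As Foxp3 itself split the cells, they are descriptions. The 125 negative cells held most of the UMIs. A gene that passed the limit with no UMI in the 12 therefore came out near or past 2-fold lower. Of 29 regulatory T cell genes other than Foxp3, 14 passed the limit, 9 were at least 2-fold higher and 0 lower, with a median of 1.62, or 9 of 14 and 1.42 without the mixed cells. Ikzf2 (Helios), a factor that stabilises regulatory T cells, had 266 UMIs in 10 of the 12 (4877 CPM) and 298 UMIs in 34 of the 125 (643 CPM), a log2 ratio of 2.92 (2.68 to 3.17). Il2ra was present in all 12, with 1 to 7 UMIs, and in 15 of the 125, a log2 ratio of 2.40 (1.82 to 2.96). Tnfrsf9 had 87 UMIs in 10 cells and 150 UMIs in 37, a log2 ratio of 2.30 (1.90 to 2.69). Ctla4, Tnfrsf4 and Tnfrsf18 had log2 ratios of 1.40, 1.74 and 1.68, and Pdcd1 of 1.99.

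Gata3, Il1rl1 and Areg, the Th2 list genes that passed, and the integrin genes Itgav and Itga4 were higher as well. The 3 Th2 list genes were at least 2-fold higher with and without the mixed cells. Gata3 was found in 8 of the 12, a log2 ratio of 1.81 (1.12 to 2.46), Il1rl1 in 5, a log2 ratio of 2.11 (1.41 to 2.78), and Areg in 5, a log2 ratio of 1.98 (1.11 to 2.79). Itgav, the alpha-v integrin chain that with a partner activates TGF-beta, was present in all 12 with 100 UMIs, a log2 ratio of 2.11 (1.75 to 2.46), and Itga4, a chain of the VLA-4 integrin, in 10, a log2 ratio of 1.81 (1.37 to 2.24). Others named by size were Bmyc at 3.20, Sh3rf1 at 2.70, Myo1e at 2.58, Lamc1 at 2.23, Ttc39c at 2.15, Tent5a at 2.13 and H2az1, a variant histone, at 1.78. Palld was named too, but 1 cell held nearly all of its UMIs and its log2 ratio went from 2.37 to -1.72 without that cell.

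**Figure D4:**
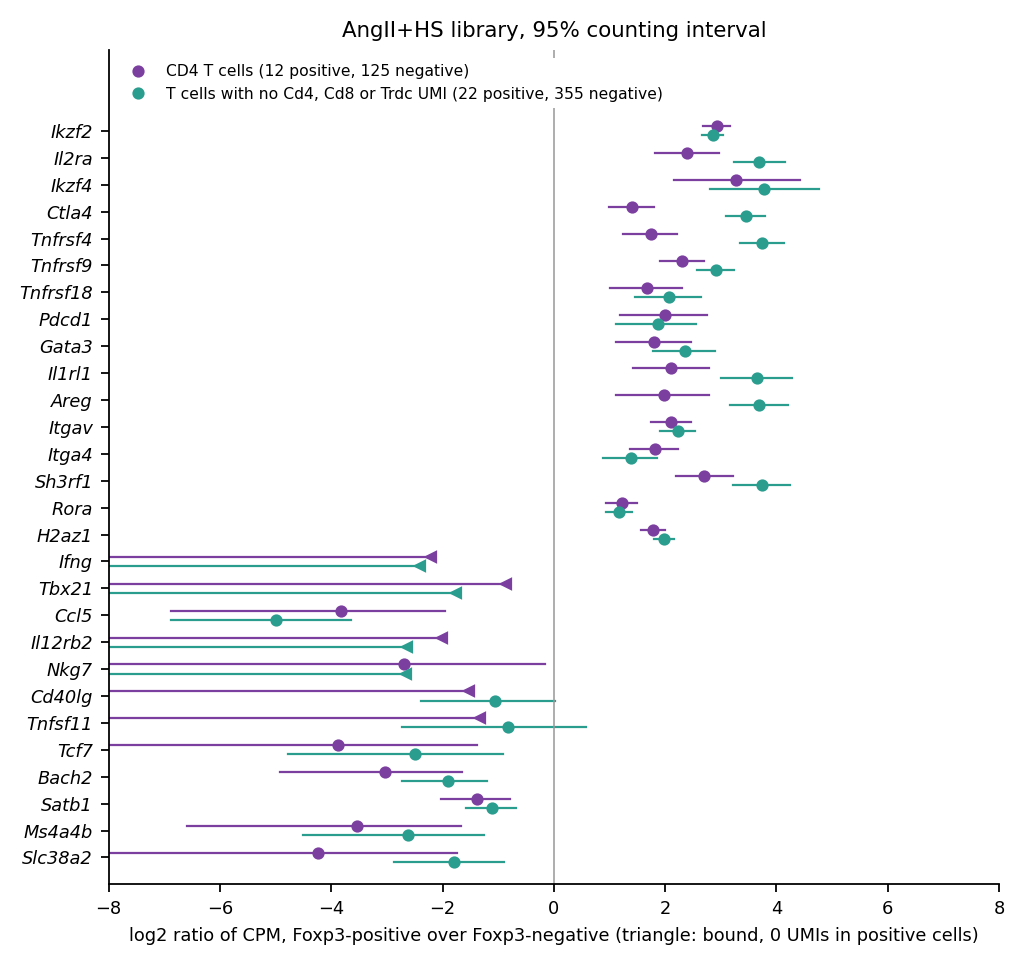
Log2 ratio of CPM, Foxp3-positive over Foxp3-negative cells of the AngII+HS library, with 95% counting intervals, for 28 genes: purple, CD4 T cells (12 over 125); teal, T cells with no Cd4, Cd8 or Trdc UMI (22 over 355); triangles, bounds for genes with 0 UMIs in the positive cells. Ikzf2 (2.92 and 2.85) and Il2ra (2.40 and 3.69) lie above 0 in both sets, and Ccl5 (-3.83 and -5.00) and Bach2 (-3.03 and -1.91) below 0.

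Several Th1 genes stood on the other side. Of 12 Th1 genes that passed, 1 was at least 2-fold higher and 6 at least 2-fold lower in the Foxp3-positive cells, with a median of -0.78 with genes at 0 set at their bound. Of the 12, 3 had 0 UMIs in 1 of the sets, so their place was largely set by the limit. Without the mixed cells 5 of 11 were lower and 1 higher, and the median was -0.37. Ifng had 117 UMIs in 27 of the 125 Foxp3-negative cells and 0 in the 12, a log2 ratio of at most -2.20. Il12rb2 had 102 UMIs in 43 and 0, at most -2.0, and Cd40lg 73 UMIs in 40 and 0, at most -1.52. Ccl5 had 241 UMIs in 44 of the negative cells and 2 in the positive, a log2 ratio of -3.83 (-6.88 to -1.96). With 12 cells, 0 of 12 still allows a share of 25%. Of 12 cytokines that passed, 8 were lower and 1 higher, with a bounded median of -1.37, or 6 of 10 lower and -1.30 without the mixed cells, and Il10, a cytokine of some regulatory cells, had 13 UMIs in 8 negative cells and 0 in the positive.

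Naive genes were lower in the Foxp3-positive cells, 6 of the 8 that passed, with a median of -1.26, or 5 of 7 and -1.46 without the mixed cells. After each cell was thinned to 1000 UMIs only 3 genes of the list still passed. Their median turned to 0.029, which was the value of Lef1. Tcf7 had 1 UMI in the 12 and 125 UMIs in 62 of the 125, a log2 ratio of -3.88 (-9.19 to -1.37), and Bach2 had 4 and 277 UMIs, -3.03 (-4.91 to -1.65). Lef1 was closer, at -1.10 (-2.34 to -0.09). When at least 2 Cd4 UMIs were asked for, 2 Foxp3-positive cells were left, and the log2 ratios of Tcf7 and Ctla4 turned, to 0.094 and -1.095. Ms4a4b, a membrane protein of naive and effector T cells, was at -3.54, and Slc38a2, an amino acid transporter, at -4.24. Lgals3 (galectin-3) was at -4.17 and Clic4, a chloride channel protein, at -4.08, each with 1 UMI in the positive cells; Clic4 came to 0.0100 with at least 2 Cd4 UMIs. Immediate early and heat shock genes were lower for 15 of 33, with a median of -0.99, or 10 of 30 and -0.87 without the mixed cells, among them Egr1 at -2.46 and Jun at -1.76. With at least 2 Cd4 UMIs their median turned to 0.050. The macrophage list summed to 476.7 CPM in the positive and 1103 CPM in the negative cells, and the erythroid list to 55.0 and 1157 CPM. Pf4 (-4.15), Hmox1 (-3.20), Thbs1 (-2.96) and Hbb-bs (-3.51) were lower too. The part of other cells' transcripts in these ratios was not tested. Without the mixed cells Pf4 was at -3.43, Hmox1 at -2.75 and Thbs1 at -1.99, and Hbb-bs was left with 3 UMIs in the positive and 5 in the negative cells.

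The 22 Foxp3-positive cells among the T cells with no Cd4, Cd8 or Trdc UMI came from the same library but are other cells. Against the 355 Foxp3-negative cells of that set, 8.01% of 4080 genes were at least 2-fold higher and 16.3% at least 2-fold lower. Of the 12 genes named above as higher, 11 passed the limit there, 9 were at least 2-fold higher again and 1 stood the other way (Palld). Of the 12 named as lower, 8 were at least 2-fold lower again and 2 stood the other way (Pf4 and Hmox1). Ctla4 had a log2 ratio of 3.45 (3.10 to 3.79), Tnfrsf4 of 3.74, Il1rl1 of 3.64 and Areg of 3.69 in these cells. Ifng and Il12rb2 had 0 UMIs in the 22 cells and 207 and 244 UMIs in the 355. In the same set, of 14 cytokines that passed 4 were higher and 4 lower, with a median of -0.19, and of 33 immediate early and heat shock genes 1 was higher and 7 lower, with a median of -0.31. Tox, a factor of long-lived stimulated T cells, was higher in both sets, at 1.61 (1.28 to 1.92) and 2.94 (2.71 to 3.17).

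Genes found together in single AngII+HS cells are given as counts, which depend on the depth of a cell. Tbx21 was found in 31 cells, of which 12 also held Gata3, as did 31 of the 106 cells without Tbx21. Over all 137 cells, 46 held Ccl5, 40 Cd40lg, 59 Lef1, 27 Il2ra, 44 Ikzf2 and 19 Areg. Among the 27 cells with Ifng, 13 held Tbx21, 16 Ccl5 and 12 Cd40lg, and 0 held Ccr7. Among the 21 cells with Ccr7, 18 held Lef1, 0 held Tbx21 or Ifng and 1 held Cd40lg. Among the 18 cells with Il1rl1, 14 held Gata3, 12 Il2ra, 12 Ikzf2, 8 Areg and 5 Foxp3. Ikzf2 itself was found in 44 cells, of which 34 had no Foxp3 UMI. Top2a was found in 20 cells, and they were deeper, with a median of 6069.5 UMIs against 2656 in the others.

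Set beside the CD8 T cells of the AngII+HS library, the CD4 T cells stood higher for 10 of the 15 regulatory T cell genes that passed the limit and lower for 10 of 11 cytotoxic genes. Over 4070 genes, 4.08% were at least 2-fold higher and 2.68% at least 2-fold lower in CD4 T cells, and since Cd4 and Cd8 UMIs chose the cells these are descriptions. Tnfrsf4 had 184 UMIs in 53 of 137 CD4 T cells and 2 UMIs in 2 of 176 CD8 T cells, a log2 ratio of 6.76 (4.88 to 9.81). Il1rl1 had 86 and 0 UMIs, a log2 ratio of at least 5.07, and Ikzf2 had 564 and 80 UMIs, 3.05 (2.71 to 3.41). The further genes named by size were Tnfsf8 at 3.44, Il2ra at 3.17, Areg at 3.55 and Sh3rf1 at 3.0. Lower in CD4 T cells were Ccl5, with 243 UMIs against 2904, -3.35 (-3.54 to -3.16), the granzyme genes Gzma (-4.05) and Gzmk (-4.16), Klrd1, a receptor of cytotoxic cells (-3.47), Bend4 (-5.98) and Mgp, a matrix gene (-2.30). Of 14 cytotoxic genes 11 passed, and 10 were at least 2-fold lower, with a median of -2.42. Ifng was close in both, at 225.9 CPM in CD4 and 179.1 CPM in CD8 T cells, a log2 ratio of 0.34 (-0.05 to 0.72), as was Lef1 at -0.21 (-0.52 to 0.10).

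Against gamma-delta T cells of the same library, over 3003 genes, 7.33% were at least 2-fold higher and 5.63% at least 2-fold lower in CD4 T cells. Ifng had 117 UMIs in CD4 and 1 UMI in gamma-delta T cells, a log2 ratio of 5.72 (3.22 to 11.04), whereas Il17a had 7 and 79 UMIs, -4.65 (-6.01 to -3.54), and Il23r 13 and 167 UMIs, -4.83 (-5.77 to -4.02). Themis, a T cell receptor signalling protein of conventional T cells, was higher in CD4 T cells at 4.88, Cd28 at 3.10 and Cd40lg at 3.46. Il2ra and Areg stood close in both, at -0.16 (-0.63 to 0.32) and 0.11 (-0.58 to 0.85).

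**Figure D5:**
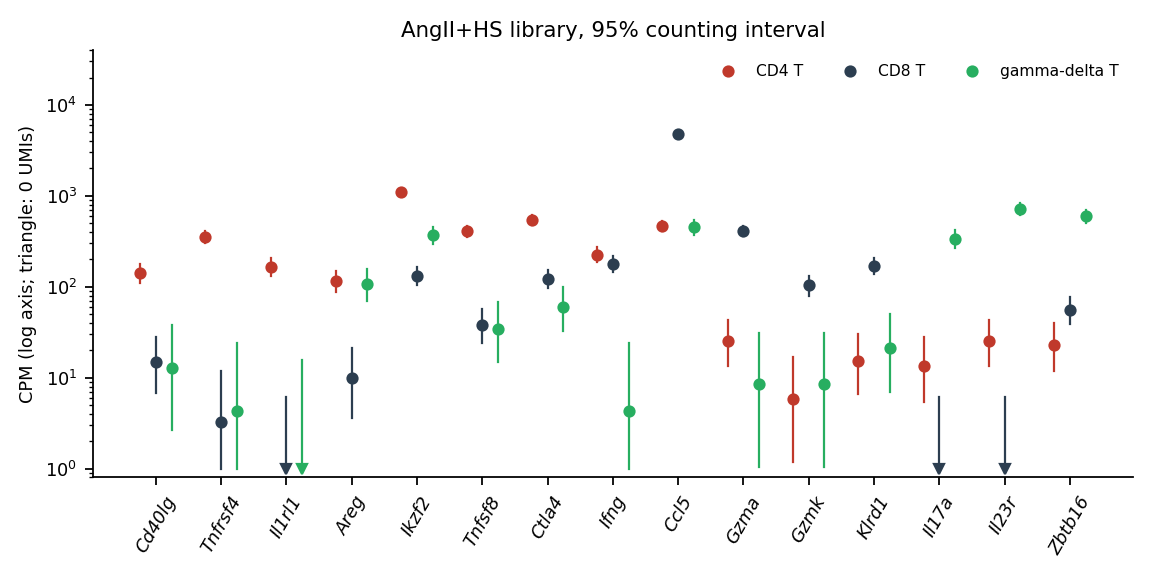
CPM on a log axis of 15 genes in the CD4 (137), CD8 (176) and gamma-delta (80) T cells of the AngII+HS library, with exact 95% Poisson intervals and a triangle where a set had 0 UMIs. Tnfrsf4 is high in CD4 T cells alone of the 3 sets (355.2 CPM), Ccl5 is highest in CD8 T cells (4771 CPM) and Il17a in gamma-delta T cells (338.2 CPM).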

How the data were processed

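UMI counts were deposited by the authors as 1 unfiltered-by-cell-type matrix per library, made with Cell Ranger from 10x Genomics 3' libraries. The matrix headers name cellranger 8.0.1, the study's methods give another release and the GRCm39 assembly, and the submitters' processing notes give mm10, so no coordinates are printed. The study removed doublets later in its own analysis, and no doublet caller was run here. The paper reports fewer cells after its quality control than the 35848 kept here. Which barcodes it left out is not known, and the shares given here use the larger number. Barcodes of 500 or more UMIs and 200 or more genes were kept where mitochondrial genes took under 20% of UMIs, which left 35848 of 36252 barcodes (11288 of 11448 Control, 86331823 UMIs; 24560 of 24804 AngII+HS, 116887129 UMIs). CD4 T cells were then taken by raw UMIs: Cd3d, Cd3e and Cd3g together at least 2, Cd4 at least 1, no Cd8a, Cd8b1, Trdc or Cd79a, C1qa, C1qb and C1qc together at most 1, S100a8 and S100a9 together under 10, and Dcn at most 3. CD8 T cells and gamma-delta T cells followed the same rule with Cd8a or Cd8b1, or Trdc, in place of Cd4. B cells had at least 2 UMIs of Cd79a and none of the CD3 genes or Cd4.

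Counts were summed over the cells of a set. CPM carries exact Poisson, shares exact binomial (Clopper-Pearson) and log2 ratios exact conditional binomial 95% intervals. A gene was counted as past the limit at a 2-fold ratio with at least 50 UMIs in both sets together. A set with 0 UMIs was given 3 UMIs for a bound, and a share of 0 the limit of 3 cells of the number counted. Genes of the rule, and Foxp3 where it split the cells, were left out of the T cell lists when these were counted. Genes named by size were the 12 highest and 12 lowest (8 each against CD8 T cells) by the interval bound nearest 0, with a UMI in at least 10% of the cells of a set, leaving out genes over 5 times higher in 6 other cell sets; the leading genes were the 20 highest over all other cells among those in at least 25% of the cells. The 20 lists of T cell programs (327 genes) and 15 lists of other cell types, like the members, were chosen with earlier results of these data known, and 4 list genes are not in the files under those symbols. The leaving out of mixed cells and of the deepest cell per gene was chosen after seeing the data. Scripts were tested on simulated data. Python 3.11.15, numpy 2.4.6, scipy 1.17.1, pandas 2.3.3 and matplotlib 3.10.9 were used.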

Additional observations from a re-analysis of the deposited data

How the results depend on the processing

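No paired analysis was possible because each group was 1 library, and for the same reason no replicate could be left out. The main limit is number: 15 Control cells, 12 Foxp3-positive cells, and a median of 2871 UMIs per AngII+HS cell. The higher CD4 T cell share in AngII+HS held under all 6 alternatives. Its log2 ratio was lowest with at least 2 Cd4 UMIs, at 1.58 (0.49 to 2.86). It was highest, at 3.40 (0.78 to 8.77), under stricter limits on other cells' transcripts, which left 23 and 1 cells. The Foxp3-positive share was 0% under those limits, so no Foxp3 ratio could be computed there, 3.85% with at least 2 Cd4 UMIs and 3.79% after thinning to 1000 UMIs.

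The number of genes at least 2-fold higher in AngII+HS (403) was 19 under the stricter limits, 151 with at least 2 Cd4 UMIs, 77 after thinning, 910 and 65 with a limit of 20 or 200 UMIs, and 646 without the cell that held most UMIs of each gene. The number at least 2-fold lower (141) was 24, 60, 19, 407, 15 and 84 under the same settings, 82 without cells of over 3 times the median depth, 75 with at least 4 CD3 UMIs and 82 without the mixed cells. Centred on the median log2 ratio, 317 were higher and 187 lower, where 403 and 141 stood before. In the Foxp3 comparison, the number higher (155) was 82 with at least 4 CD3 UMIs, 29 after thinning, 483 and 16 with limits of 20 or 200 UMIs, and 89 without the top cell. The number lower (331) was 166, 63, 780, 45 and 503 there, and 139 with at least 2 Cd4 UMIs. Fewer cells or genes enter several of these settings.

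Of 145 medians and 543 single-gene values of AngII+HS over Control under 14 alternatives, 4 and 3 changed sign, counting medians that were over 0.5 in size, genes whose interval left out 0, and only genes that still passed the UMI limit (Myh11, at 0.08 without the mixed cells, did not): with at least 2 Cd4 UMIs the naive list (0.42), Lef1 (0.53) and Bach2 (0.027), without the mixed cells the smooth muscle list (0.12) and Fos (0.030), and under the stricter limits the T cell receptor list (-0.84, and -0.027 with a limit of 200 UMIs). In the Foxp3 comparison 2 of 139 medians and 6 of 443 gene values did: with at least 2 Cd4 UMIs the immediate early list (0.050), Clic4 (0.0100), Ctla4 (-1.095) and Tcf7 (0.094), after thinning the naive list (0.029) and Lef1 (0.029), and without the top cell Palld (-1.72) and Hbb-bs (0.70). Without a change of sign, 17 medians moved by 0.5 or more and 80 gene values left their interval in the first comparison, 17 and 31 in the second, and 4 of 16 gene values of CD4 over CD8 T cells. Some of the medians that changed sign rested on few genes. These were 2 for the smooth muscle list, 2 and 8 for the T cell receptor list, and 3 for the thinned naive list. The causes were not tested. The counts of CD4 over CD8 and over gamma-delta T cells without the mixed cells stayed within 1.5 times of those reported.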
